A study of Mus musculus with 5 samples.

Results

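A set of 10 chaperone and stress genes, 5 that act in the cytosol and 5 that act in or for the endoplasmic reticulum (ER), was followed through single-cell RNA sequencing of mouse bone marrow stroma. They were taken by name: Hspa1a, Hspa1b, Hspa8, Hsp90aa1 and Dnajb1 for the cytosol, and Hspa5, Hsp90b1, Pdia4, Xbp1 and Ddit3 for the ER. All 10 were listed in every library, among 30099 distinct gene symbols. Heat and other insults that unfold cytosolic proteins free the transcription factor HSF1, which binds heat shock elements and drives the inducible HSP70 genes within minutes. Unfolded protein inside the ER is instead sensed by ATF6, IRE1 and PERK; ATF6 and the spliced form of XBP1 raise ER chaperones, and PERK raises ATF4 and then CHOP. Marrow reticular cells secrete large amounts of Cxcl12 and matrix, so their ER carries a steady load, while HSP70 genes are also known to be switched on by tissue digestion and sorting.

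The cells were sorted for tdTomato from the femur marrow of mice with the genotype Lepr-cre; R26R-tdTomato, in which Cre made under the leptin receptor gene marks reticular cells and every cell descended from them. There were 5 libraries, 1 for each group, all of this genotype. The aged-injury group was 18 months old and 1 week past 1 bone marrow ablation surgery, and the aged group was 18 months old and uninjured. The exhausted group was 15 weeks old, with ablations at 9 and 13 weeks; the naive group was 15 weeks old, with 1 ablation at 13 weeks; and the control group was 15 weeks old and uninjured. The labels give neither the number of animals behind a library nor a batch, so library, batch and group cannot be told apart. No difference between groups has a replicate check, and no p-value is given: intervals are exact and cover counting error only.

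The libraries held 20867, 9814, 8603, 7480 and 11204 barcodes in aged-injury, aged, exhausted, naive and control, of which 19497, 7560, 6277, 5242 and 9253 passed filters, with medians of 9512, 6671, 7276, 7479 and 8410 unique molecular identifiers (UMIs) per cell. Cells were put in classes by marker genes, and the largest class, called reticular-like, held 13037, 5708, 2257, 2592 and 6147 cells. It had 24295 to 37788 CPM (UMIs of the gene per 1000000 UMIs) of Cxcl12 and 2165 to 4688 CPM of Lepr, and 0.371 to 7.39 CPM of the leukocyte gene Ptprc. Red cell marker genes summed to 70.5, 467, 573, 346 and 782 CPM in it, and neutrophil marker genes to 13.4, 60.4, 204, 107 and 241 CPM, in the same order of groups. Their part in the results was not tested. Levels below are CPM of the UMIs summed over the cells of a class, and a gene counted as measured in a comparison, and could be past 2-fold, only with at least 20 CPM in either library.

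Hspa1a and Hspa1b encode near-identical forms of the inducible HSP70 and lie next to each other on chromosome 17. Their starts are shown because the pair moved together and because reads from the copies can be hard to assign. The 250 bases before each start site, from RefSeq's GRCm38.p6 table and read on the minus strand, lie at chr17:34972157-34972406 for Hspa1a and chr17:34959239-34959488 for Hspa1b, with the heat shock element in capitals:
Hspa1a: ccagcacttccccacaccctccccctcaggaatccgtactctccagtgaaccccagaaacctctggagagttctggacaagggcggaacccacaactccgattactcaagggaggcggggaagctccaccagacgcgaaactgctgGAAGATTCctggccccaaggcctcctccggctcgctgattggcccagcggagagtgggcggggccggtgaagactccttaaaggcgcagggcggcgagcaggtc
Hspa1b: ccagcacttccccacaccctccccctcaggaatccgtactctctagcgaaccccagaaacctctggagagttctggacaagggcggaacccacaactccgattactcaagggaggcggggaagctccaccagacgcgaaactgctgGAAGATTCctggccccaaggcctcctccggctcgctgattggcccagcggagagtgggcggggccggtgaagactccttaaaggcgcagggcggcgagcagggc
The 2 stretches differ at 3 of 250 bases. The search used GAANNTTC on both strands, the 2-unit heat shock element, which 7.86% of 32851 promoters of 300 bases hold; the 3-unit form GAANNTTCNNGAA, held by 0.603%, was in neither. The coding sequences of the pair, 1923 and 1926 bases long, differ at 8 of 1923 aligned bases. After the stop codon only 59.9% of 614 aligned bases are the same (GENCODE M21). How the counting split reads between the copies is not given in the sources used here, so the pair is also given as a sum.

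The inducible pair separated the young ablated libraries from all others in reticular-like cells. Hspa1a stood at 199.9 CPM in aged-injury, 166 in aged, 27.3 in exhausted, 31.8 in naive and 96.7 in control. Hspa1b stood at 277, 270, 32.9, 46.8 and 142 CPM in the same order of groups. Both 18-month libraries were above control and both 15-week ablated libraries below it, and the counting intervals of Hspa1a overlapped between exhausted, 25.1 to 29.8 CPM, and naive, 29.6 to 34.1 CPM. Summed, the pair had 477, 436, 60.3, 78.6 and 239 CPM, and Hspa1b made up 54.6% to 61.9% of its UMIs in every library.

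**Figure D1:**
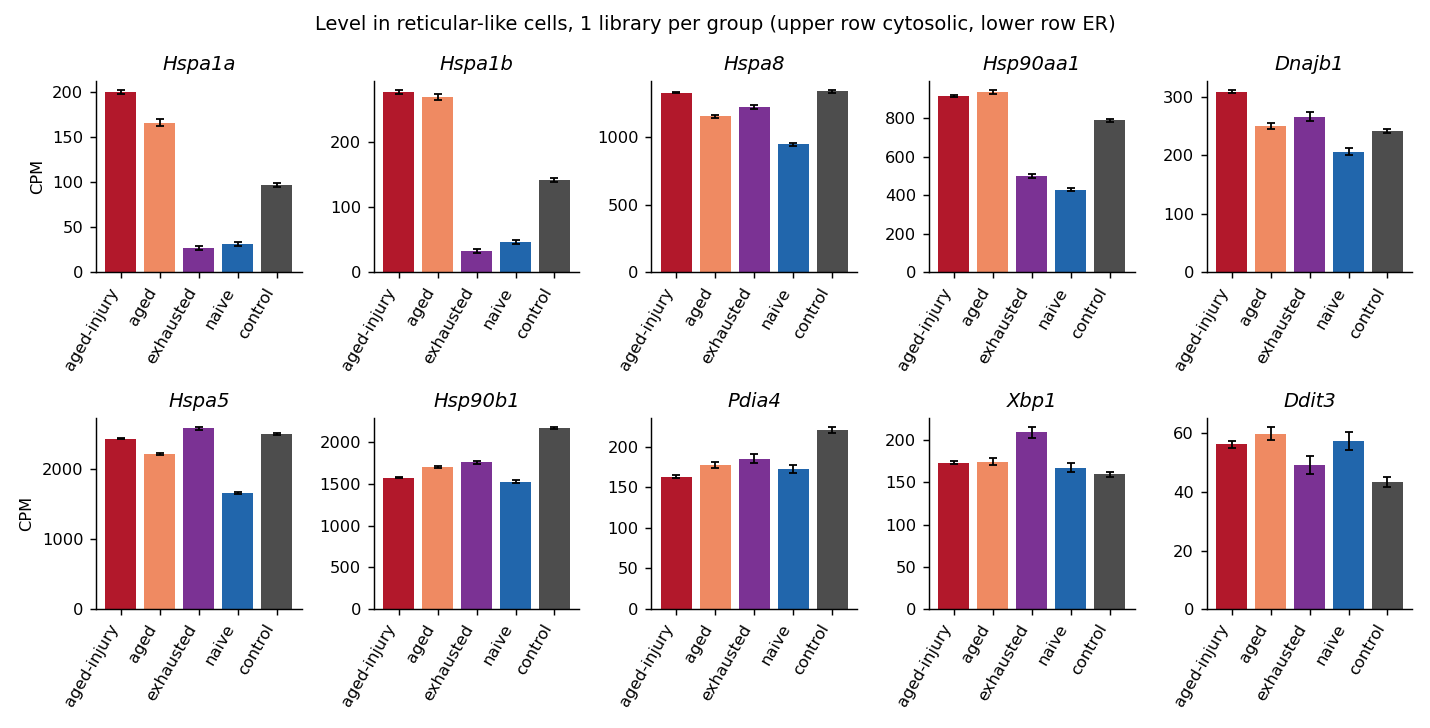
Level of each gene in reticular-like cells in CPM, 1 bar per library, with exact Poisson 95% intervals (counting error only); cytosolic genes in the upper row and ER genes in the lower row. Hspa1a and Hspa1b are lowest in exhausted and naive, and Hspa5 is lowest in naive at 1658 CPM.

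The other cytosolic members had narrower ranges. Hspa8, the constitutive HSC70, stood at 1327 CPM in aged-injury, 1153 in aged, 1221 in exhausted, 945 in naive and 1336 in control; the intervals of aged-injury and control overlapped. Hsp90aa1, the stress-inducible HSP90 isoform, stood at 919, 938, 500.2, 431 and 790.3 CPM, so it had the same split as the HSP70 pair, with the 2 young ablated libraries lowest. Dnajb1, the HSP40 partner that loads clients onto HSP70, stood at 309, 250.1, 266, 206 and 241 CPM, with exhausted above control. Of the 5 cytosolic genes, 4 were highest in an 18-month library and Hspa8 was highest in control.

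The ER members had another order. Hspa5, which encodes BiP, the HSP70 of the ER lumen and the brake on all 3 stress sensors, stood at 2435 CPM in aged-injury, 2217 in aged, 2581 in exhausted, 1658 in naive and 2497 in control. Naive was alone at the low end. Exhausted was the highest over all cells and in those over 10000 UMIs, at 2901 CPM against 2622 CPM in control, but not in those under 5000, at 1497 against 1951 CPM, or of 5000 to 10000, at 2396 against 2399 CPM. Hsp90b1, the ER HSP90 known as GRP94, stood at 1571, 1699, 1759, 1525 and 2170 CPM. Pdia4, a protein disulfide isomerase, stood at 163, 177, 185, 172 and 220.3 CPM. Both were highest in control, and the intervals of Pdia4 overlapped between aged and naive.

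The 2 stress regulators had narrow ranges. Xbp1 stood at 173, 175, 209, 167 and 159 CPM; counts per gene cannot tell its spliced, active form from the unspliced one. It was highest in exhausted, and its intervals overlapped among aged-injury, aged and naive and between naive and control. Ddit3, which encodes CHOP, the transcription factor that can push a stressed cell to death, stood at 56.3, 59.9, 49.0, 57.2 and 43.4 CPM. It was lowest in control, and the interval of naive overlapped those of aged-injury and aged, which did not overlap with each other.

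The promoters of the 2 main ER chaperones are shown because both hold the letters of the ER stress response element, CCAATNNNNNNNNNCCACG, to which ATF6 is known to bind; it was searched on both strands, its first 5 letters are also a CCAAT box, and 0.119% of the 32851 promoters hold it. These are again the 250 bases before the start site from RefSeq's GRCm38.p6 table, at chr2:34771840-34772089 on the plus strand for Hspa5 and chr10:86705445-86705694 on the minus strand for Hsp90b1, with the element in capitals (the second in Hsp90b1 is on the opposite strand):
Hspa5: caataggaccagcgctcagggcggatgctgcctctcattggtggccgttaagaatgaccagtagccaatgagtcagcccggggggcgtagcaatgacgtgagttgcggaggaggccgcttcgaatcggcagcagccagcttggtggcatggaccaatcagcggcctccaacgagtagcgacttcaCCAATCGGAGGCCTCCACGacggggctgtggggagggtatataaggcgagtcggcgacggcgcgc
Hsp90b1: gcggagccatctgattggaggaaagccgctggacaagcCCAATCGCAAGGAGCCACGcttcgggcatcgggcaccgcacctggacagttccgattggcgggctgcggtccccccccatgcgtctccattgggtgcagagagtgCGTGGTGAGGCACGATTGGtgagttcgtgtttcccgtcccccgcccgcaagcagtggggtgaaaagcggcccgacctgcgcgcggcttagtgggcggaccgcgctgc
Hspa5 held 1 such element and Hsp90b1 held 2, and neither window held a heat shock element. The windows of Pdia4, Xbp1, Ddit3 and Dnajb1 held neither sequence, which says only that these letters are not in these windows. Promoters were matched for 8 of the 10 genes, and Hspa8 and Hsp90aa1 were not in the table.

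The comparison of naive with control asks what 1 ablation leaves 2 weeks later in young marrow. Of the 10 genes 8 had a ratio below 1 in reticular-like cells, as did 30.9% of all measured genes. The inducible HSP70 pair alone was past 2-fold. Hspa1a was 3.04-fold lower (95% counting interval 2.82 to 3.28) and Hspa1b 3.04-fold lower (2.85 to 3.23), set against 1.52% of the 6839 genes measured in this comparison that were at least 2-fold lower and 2.98% that were at least 2-fold higher. Hsp90aa1 had a ratio of 0.545 (0.534 to 0.557) and was past 2-fold lower, at a log2 ratio of -1.03, under TMM scaling and likewise under median-of-ratios scaling. Hspa5 had a ratio of 0.664 (0.657 to 0.671), Hsp90b1 of 0.703 (0.695 to 0.711), Hspa8 of 0.707 (0.697 to 0.718), Pdia4 of 0.782 (0.756 to 0.810) and Dnajb1 of 0.855 (0.828 to 0.883). Xbp1 and Ddit3 were on the other side, with ratios of 1.05 (1.01 to 1.09) and 1.32 (1.24 to 1.41); that of Xbp1 was below 1 under TMM and median-of-ratios scaling and as a mean of per-cell CPM. Ddit3 was lower in naive than in control among cells under 5000 UMIs, at 33.9 CPM against 58.0 CPM, and among those with a mitochondrial share of 10% to 25%, at 56.1 CPM against 58.8 CPM. The median log2 ratio was -0.88 for the cytosolic genes and -0.35 for the ER genes, beside 0.13 for all measured genes.

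The comparison of exhausted with control asks the same after a repeat ablation. The HSP70 pair was again past 2-fold, and the ER genes lay on both sides of 1, none past 2-fold. Hspa1a was 3.54-fold lower (3.24 to 3.88) and Hspa1b 4.32-fold lower (3.98 to 4.69), set against 0.889% of 6635 genes at least 2-fold lower and 1.04% at least 2-fold higher. Hsp90aa1 had a ratio of 0.633 (0.619 to 0.647) and Hspa8 of 0.914, while Dnajb1 had a ratio of 1.10. Among ER genes Hspa5 had a ratio of 1.03 (1.02 to 1.04), Hsp90b1 of 0.811, Pdia4 of 0.840, Xbp1 of 1.31 and Ddit3 of 1.13. As a mean of per-cell CPM the log2 ratios of Hspa5 and Dnajb1 turned, to -0.08 and -0.05, and both genes were lower than in control among cells under 5000 UMIs, with ratios of 0.767 and 0.660. The medians were -0.66 for the cytosolic genes, 0.05 for the ER genes and 0.06 for all measured genes. Naive and exhausted share the control library, so their ratios are not independent of each other.

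The direct comparison of exhausted with naive set the repeat ablation against the single one. Over all cells no member was past 2-fold, in a comparison where 0.221% of 6778 genes were at least 2-fold higher and 0.487% at least 2-fold lower. Hspa5 had the ratio farthest from 1 among the members, 1.56 (1.54 to 1.58), at 2581 CPM in exhausted and 1658 CPM in naive. Hspa8, Dnajb1 and Xbp1 had ratios of 1.29, 1.29 and 1.25, whereas Hspa1b stood at 0.703 (0.637 to 0.775) and Ddit3 at 0.857. With the cells split into 6 strata by depth or mitochondrial share, Hspa1b was above 1 in 2 and below 1 in 4. Its ratio ran from 0.288 to 1.19 and was past 2-fold lower only among cells with a mitochondrial share under 5%. The medians were 0.22 for the cytosolic and 0.21 for the ER genes, beside -0.07 for all measured genes.

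The comparison of aged with control asks what age does without surgery. The HSP70 pair was on the high side in aged, close to but not past 2-fold over all cells. On the low side were 3 ER genes, as were 57.8% of all measured genes. Hspa1b had a ratio of 1.90 (1.84 to 1.95) and Hspa1a of 1.72 (1.66 to 1.78), in a comparison where 0.373% of 6426 genes were at least 2-fold higher and 0.42% at least 2-fold lower. With the cells split at 5000 and 10000 UMIs, or at mitochondrial shares of 5% and 10%, which gives 6 strata, Hspa1b was past 2-fold in 4, with ratios of 1.76 to 2.44 over the 6, and Hspa1a in 3, with ratios of 1.56 to 2.72. Ddit3 had a ratio of 1.38 (1.31 to 1.46) and Hsp90aa1 of 1.19, while Hsp90b1 stood at 0.783, Pdia4 at 0.804, Hspa8 at 0.863 and Hspa5 at 0.888. Dnajb1 and Xbp1 were at 1.04 and 1.10. The medians were 0.25 for the cytosolic genes, -0.17 for the ER genes and -0.02 for all measured genes.

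The comparison of aged-injury with aged asks what ablation does in old marrow, 1 week after surgery. No member was past 2-fold, their ratios lying between 0.920 and 1.23, where 2.91% of 6763 genes were at least 2-fold higher and 1.33% at least 2-fold lower. Dnajb1 had a ratio of 1.23 (1.21 to 1.26), Hspa1a of 1.20 (1.17 to 1.23), Hspa8 of 1.15 and Hspa5 of 1.10. Hsp90b1 and Pdia4 stood at 0.924 and 0.920, and the interval of Xbp1, 0.968 to 1.02, included 1. The medians were 0.20 for the cytosolic genes, -0.09 for the ER genes and 0.11 for all measured genes.

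**Figure D2:**
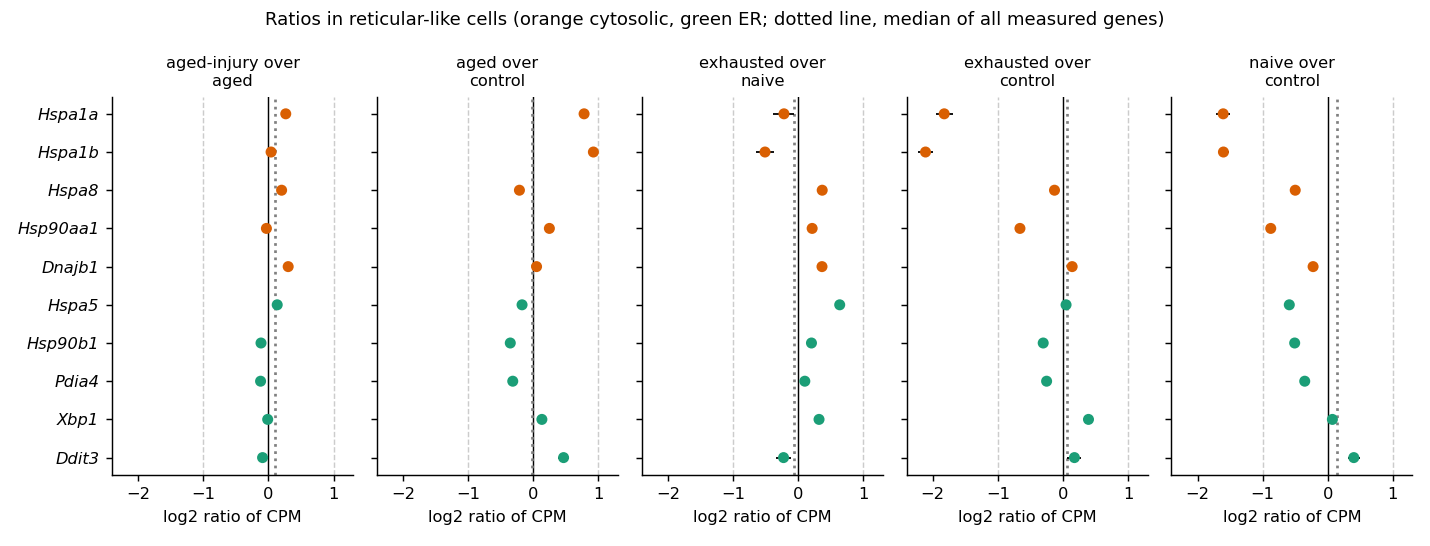
Log2 ratio of CPM in reticular-like cells for each gene (rows) in 5 comparisons (panels); points are ratios, horizontal lines exact 95% counting intervals, dashed lines 2-fold and the dotted line the median of all measured genes. Hspa1a and Hspa1b stand left of the 2-fold line against control in exhausted and naive only, among these 5 comparisons.

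Signs of handling, depth and cell condition were set beside the HSP70 pair. Immediate early genes, which respond to dissociation as well as to signals in the tissue, summed to 28316 CPM in aged-injury, 37394 in aged, 32790 in exhausted, 22105 in naive and 37228 in control reticular-like cells. Their median log2 ratio was -0.64 for naive over control, -0.11 for exhausted over control, 0.47 for exhausted over naive, 0.10 for aged over control and -0.47 for aged-injury over aged. Against control 13 of the 14 genes had a ratio below 1 in naive, 4 of them past 2-fold, beside 30.9% of all measured genes below 1. In exhausted it was 10 of the 14, 0 of them past 2-fold, beside 37.6% of all measured genes below 1. The part of the immediate early genes in the results was not tested. Split by depth, cells under 5000 UMIs, of 5000 to 10000 and over 10000 had 29.98, 21.6 and 36.0 CPM of Hspa1a in naive and 62.8, 79.1 and 110.7 CPM in control. Split by mitochondrial share, under 5%, 5% to 10% and 10% to 25%, they had 46.3, 26.5 and 27.2 CPM in naive and 113, 95.1 and 57.2 CPM in control. Naive was the lower in all 6 strata. For Hspa1b naive was also the lower in all 6, with ratios to control of 0.230 to 0.579, and was past 2-fold in 5. The exception was a mitochondrial share under 5%, at 89.8 CPM in naive and 155 CPM in control.

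The level of the HSP70 pair was set by a minority of cells. With each cell thinned to 2000 UMIs, 14.5% of aged-injury reticular-like cells had 2 or more UMIs of the pair (13.9% to 15.1%), as did 12.0% of aged cells (11.2% to 12.9%), 1.70% of exhausted (1.20% to 2.34%), 1.94% of naive (1.44% to 2.54%) and 7.06% of control cells (6.43% to 7.73%). Those cells held 91.1%, 89.4%, 54.8%, 73.1% and 84.0% of the pair's thinned UMIs, at 6.28, 6.17, 3.11, 4.90 and 5.28 UMIs per cell. The cells with none were 76.5%, 79.2%, 93.9%, 94.6% and 85.8%. Between naive and control the share of cells with 2 or more was farther apart, 1.94% and 7.06%, than the amount in each of them, 4.90 and 5.28 UMIs. In exhausted that amount was lower, at 3.11 UMIs. The cut keeps the amount at 2 UMIs or more while the share is free to move, so share and amount cannot be weighed against each other.

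The spread from cell to cell was described by the variance of thinned UMIs over their mean. This ratio is 1 where cells differ by sampling alone. Otherwise it also rises with a gene's level, so genes or libraries of unlike level cannot be ranked by it. For Hspa1b it was 6.34, 7.14, 2.29, 4.10 and 5.80 in aged-injury, aged, exhausted, naive and control, at means of 0.585, 0.520, 0.0590, 0.0732 and 0.261 UMIs per cell. For Hsp90aa1 it was 4.14, 4.80, 1.83, 2.32 and 4.01. For Pdia4 it lay between 1.10 and 1.13 in all 5 libraries, at means of 0.325 to 0.432 UMIs per cell, and for Xbp1 between 1.12 and 1.24. In exhausted, naive and control Hspa1b had a lower mean than Pdia4 and a larger variance over mean. For Hspa5 the ratio was highest in exhausted, 3.01, and 2.02 to 2.20 in the other libraries.

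Any 1 gene of the pair was seen in few cells. At 2000 UMIs Hspa1a had a UMI in 14.9% of aged-injury, 11.2% of aged, 2.76% of exhausted, 3.02% of naive and 7.79% of control reticular-like cells; without thinning these shares were 27.9%, 18.9%, 8.73%, 7.64% and 16.3%. No class here is known to lack the gene. In neutrophil-like cells, a class with little of the pair that had at least 50 cells in 4 libraries, the thinned shares were 1.79% in aged, 0.861% in exhausted, 1.06% in naive and 1.11% in control, all below the reticular-like shares. Median depths there were 7736, 6169, 8444 and 8496.5 UMIs, near the 7315, 7465, 8071 and 8777 UMIs of reticular-like cells. By contrast Hspa5 had a UMI in 87.1% to 96.0% of thinned reticular-like cells in the 5 libraries.

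**Figure D3:**
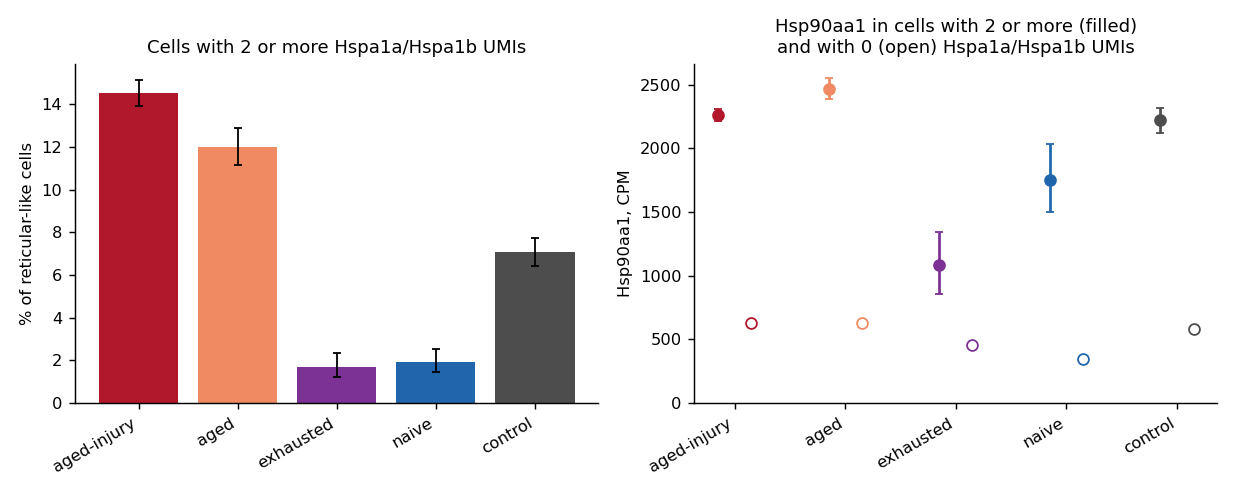
Left, percent of reticular-like cells with 2 or more Hspa1a and Hspa1b UMIs after thinning to 2000 UMIs, with exact binomial 95% intervals; right, Hsp90aa1 in CPM in cells with 2 or more (filled) and 0 (open) UMIs of the pair, with exact Poisson 95% intervals. Exhausted and naive have 1.70% and 1.94% of such cells, and Hsp90aa1 is higher in the filled point of every library. Both panels use UMIs after thinning.

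Cells that carried the HSP70 pair also carried more of the cytosolic partners, while their ER chaperones were close to or below the level in other cells. Hsp90aa1 was 3.59-fold higher in aged-injury, 3.93-fold in aged, 2.36-fold in exhausted, 5.11-fold in naive and 3.84-fold in control in cells with 2 or more UMIs of the pair than in cells with none. Dnajb1 was 2.86-, 2.71-, 1.32-, 3.51- and 2.41-fold higher, and Hspa8 1.54-, 1.83-, 1.55-, 2.06- and 1.71-fold higher. Both sets of cells were told apart by their UMIs after thinning, so cells with none can still carry the pair at full depth. The cells with 2 or more numbered 1888, 666, 37, 50 and 432, so the exhausted and naive values rest on few cells.

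The ER genes split into chaperones and CHOP. Hspa5 had ratios of 0.977, 0.912, 0.972, 0.998 and 0.997 between the same cells in aged-injury, aged, exhausted, naive and control. Hsp90b1 lay between 0.871 and 0.956, Pdia4 between 0.771 and 1.01 and Xbp1 between 0.804 and 1.05. Ddit3 alone among the ER genes was higher in all 5, by 1.55-, 1.78-, 2.34-, 1.68- and 1.73-fold. No interval is given for these ratios, and those of exhausted and naive rest on 37 and 50 cells with the pair. Over all thinned reticular-like cells the mean of Ddit3 was 0.106 UMIs per cell in exhausted and 0.0976 in naive, so few UMIs lie behind both.

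**Figure D4:**
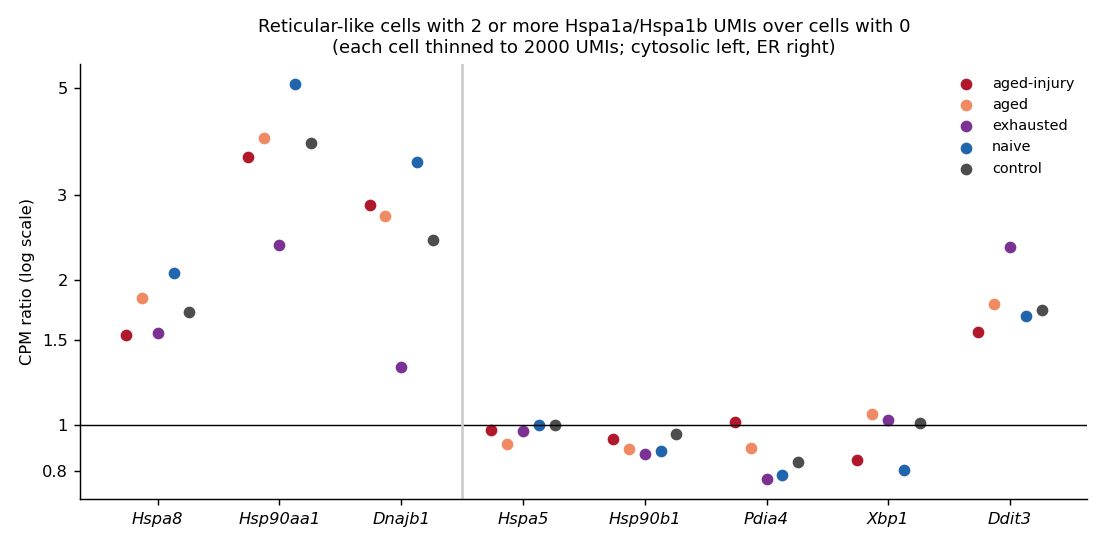
Ratio of CPM, on a log axis, in reticular-like cells with 2 or more UMIs of Hspa1a and Hspa1b over cells with none, after thinning, 1 point per library. The 3 cytosolic genes and Ddit3 lie above 1 in all 5 libraries, and Hsp90b1 lies below 1 in all 5. The points of exhausted and naive rest on 37 and 50 cells with the pair.

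The wider lists were read in the same cells, told apart by their UMIs of the pair after thinning. Across all 7831 genes measured there, the pair left out, 0.0894% were at least 2-fold higher in the cells with the pair in all 5 libraries and 0.0128% at least 2-fold lower, which is 7 genes and 1 gene. Of 16 measured genes in the list of other cytosolic heat shock genes, 3 were among those 7: Hspb1, a small heat shock protein, by 4.99- to 19.7-fold; Hsph1, the HSP110 that recharges HSP70, by 2.96- to 8.93-fold; and Hspe1, the mitochondrial HSP10, by 3.07- to 5.38-fold. Hsp90aa1 was a further one of the 7. The list called other cytosolic heat shock genes is not all cytosolic, as it also holds the mitochondrial Hspe1 and Hspd1 and the ER gene Serpinh1. Of 22 ER folding genes 0 were at least 2-fold higher or lower in all 5, as were 0 of 9 genes of the PERK and ATF4 arm and 0 of 14 immediate early genes. The summed immediate early level was 35005 CPM in aged-injury cells with the pair and 26737 CPM in those without, 42731 and 36278 CPM in aged, 32054 and 32781 CPM in exhausted, 31886 and 21655 CPM in naive, and 43595 and 36094 CPM in control. Median depth was 10452, 8373.5, 7899, 9386.5 and 10465.5 UMIs in the cells with the pair and 10121, 7369, 7659, 8045 and 8605.5 in those without. The part of either in these ratios was not tested.

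Hsp90aa1 was also lower in the young ablated libraries among cells with no UMI of the pair after thinning. It stood there at 630 CPM in aged-injury, 628 in aged, 458 in exhausted, 343 in naive and 577 in control. Hspa5 in the same cells stood at 2434, 2114, 2293, 1503 and 2386 CPM, so naive was lowest for both. Thinning drops UMIs, so some of these cells did carry the pair. In aged-injury 76.5% of cells had none after thinning, while 32.8% had a UMI of Hspa1b without thinning. Cells free of the pair at full depth were not looked at separately.

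In the comparisons between libraries the wider lists mostly stayed within 2-fold. In the list of other cytosolic heat shock genes, Hspb1 had 48.0 CPM in exhausted against 147 CPM in control, 3.06-fold lower. It had 42.1 CPM in naive, 3.50-fold lower. The other 14 measured genes were within 2-fold of control in both. Of the 15 measured genes more had a ratio above 1 than below it, as was so for all measured genes but not for the cytosolic members. In naive 9 were above and 6 below, beside 69.1% of all measured genes above 1. The median log2 ratio was 0.07 beside 0.13 for all measured genes. In exhausted 10 were above and 5 below, beside 62.4% of all measured genes above 1, at a median of 0.17 beside 0.06. Like the HSP70 pair, Hspb1 was lowest in the 2 young ablated libraries; it had 146 CPM in aged-injury, near the level in control, and 171 CPM in aged. Hspe1 had 197 CPM in aged-injury against 97.0 CPM in aged, 2.03-fold higher (1.97 to 2.10). It was the 1 of 15 measured genes of that list past 2-fold in that comparison. There 13 of the 15 were above 1 and 2 below, beside 63.1% of all measured genes above 1. The median log2 ratio was 0.35 beside 0.11 for all measured genes. The ER folding list had 15 of 22 genes above 1 and 7 below in the same comparison, near that share of all genes, at a median of 0.18. Hsph1 had 94.9 CPM in aged-injury, 63.3 in aged, 42.0 in exhausted, 38.2 in naive and 35.9 in control.

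The ER lists held few genes past 2-fold. Sdf2l1, a cofactor of BiP, had 23.5 CPM in naive against 56.9 CPM in control, a ratio of 0.413 (0.378 to 0.451), the 1 of 22 measured ER folding genes past 2-fold there; 17 of the 22 had a ratio below 1, as did 30.9% of all measured genes, and the median log2 ratio was -0.19 beside 0.13 for all measured genes. For exhausted over naive 20 of the 22 had a ratio above 1, as did 36.4% of all measured genes, at a median of 0.16 beside -0.07, and none was past 2-fold. In the PERK and ATF4 arm, Atf3, an early stress transcription factor, had 96.1 CPM in naive against 216 CPM in control, 2.25-fold lower. Vldlr, a lipoprotein receptor, had 49.4 CPM in naive against 21.1 CPM in control, 2.34-fold higher; the other 7 measured genes of the arm were within 2-fold. Of 14 immediate early genes 4 were past 2-fold lower in naive, Fos, Egr1, Atf3 and Ier3, with Fos at 4093 CPM in naive against 8987 CPM in control.

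Across cell classes the main ER chaperones were highest in reticular-like cells, and the HSP70 pair was highest in another class in all 5 libraries. Hspa5 and Hsp90b1 were highest in reticular-like cells in all 5 libraries among the 6 to 9 classes of at least 50 cells, and Dnajb1 was too. Osteoblast-lineage-like cells, marked by bone matrix genes, had 1403, 1050, 1352, 874 and 1330 CPM of Hspa5 in aged-injury, aged, exhausted, naive and control. Pdia4 was highest in reticular-like cells in 4 libraries; in naive, adipocyte-like cells had 194 CPM and reticular-like cells 172 CPM. It was lowest in erythroid-like cells, at 16.9, 4.43, 10.3, 9.10 and 11.02 CPM.

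Xbp1 and Ddit3 had other leading classes. Xbp1 was highest in endothelial-like cells wherever that class had enough cells, at 386 CPM in aged-injury, 624 in exhausted and 402 in naive, and in macrophage-like cells in aged and control, at 272 and 214 CPM. Ddit3 was near even: its highest class was 1.24- to 2.14-fold above its lowest in each library. Hsp90aa1 was highest in erythroid-like cells in 4 libraries, at 1665 CPM in aged-injury, 1047 in exhausted, 859 in naive and 984 in control, and in reticular-like cells in aged, at 938 CPM.

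The order of libraries for the HSP70 pair differed between classes. Among stromal and vascular classes with fewer libraries, aged-injury was the highest, as in reticular-like cells: pericyte-like cells had 572 CPM in aged-injury and 77.0 in naive, and endothelial-like cells 696 CPM in aged-injury, 198 in exhausted and 182 in naive. In macrophage-like cells it had 474 CPM in aged, 324 in exhausted, 586 in naive and 569 in control, and the interval of the ratio of naive to control included 1, at 1.03 (0.971 to 1.09). In B-cell-like cells it had 259.6 CPM in aged, 123 in exhausted, 181 in naive and 83.1 in control, and in neutrophil-like cells 21.5, 44.0, 77.0 and 23.9 CPM. The ratio of naive to control was thus 2.18 (1.84 to 2.59) in B-cell-like cells and 3.22 (2.63 to 3.94) in neutrophil-like cells, and 0.329 (0.314 to 0.345) in reticular-like cells of the same 2 libraries. These are ratios of summed UMIs, and they rest on few cells. In neutrophil-like cells 6.69% of 284 naive cells had any UMI of the pair, against 11.5% of 634 control cells, and the 3 cells with most held 64.8% of the pair's UMIs in naive and 34.9% in control. In B-cell-like cells the shares were 15.2% in naive and 13.6% in control. Neutrophil-like, macrophage-like and B-cell-like cells had 448 to 955 CPM of the leukocyte gene Ptprc. They are not taken here as descendants of reticular cells or as a fair sample of marrow blood.

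Bone and red cell classes differed from the reticular class as well. In osteoblast-lineage-like cells the pair had 457 CPM in aged-injury, 119 in aged, 137 in exhausted, 204 in naive and 139 in control. Its ratio there was 3.82 (3.28 to 4.48) for aged-injury over aged, beside 1.10 (1.08 to 1.11) in reticular-like cells, and 1.47 (1.296 to 1.66) for naive over control. In erythroid-like cells it had 261, 103, 41.6, 102 and 132 CPM, with ratios of 2.55 for aged-injury over aged and 0.315 for exhausted over control. Aged-injury held 1449 osteoblast-lineage-like cells at a median of 15748 UMIs and aged held 177 at 6764 UMIs, and the part of that gap was not tested. As a measure of free RNA from reticular cells, Cxcl12 stood at 148 to 738 CPM in the 4 blood classes of these libraries, where reticular-like cells had at least 24295 CPM.

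**Figure D5:**
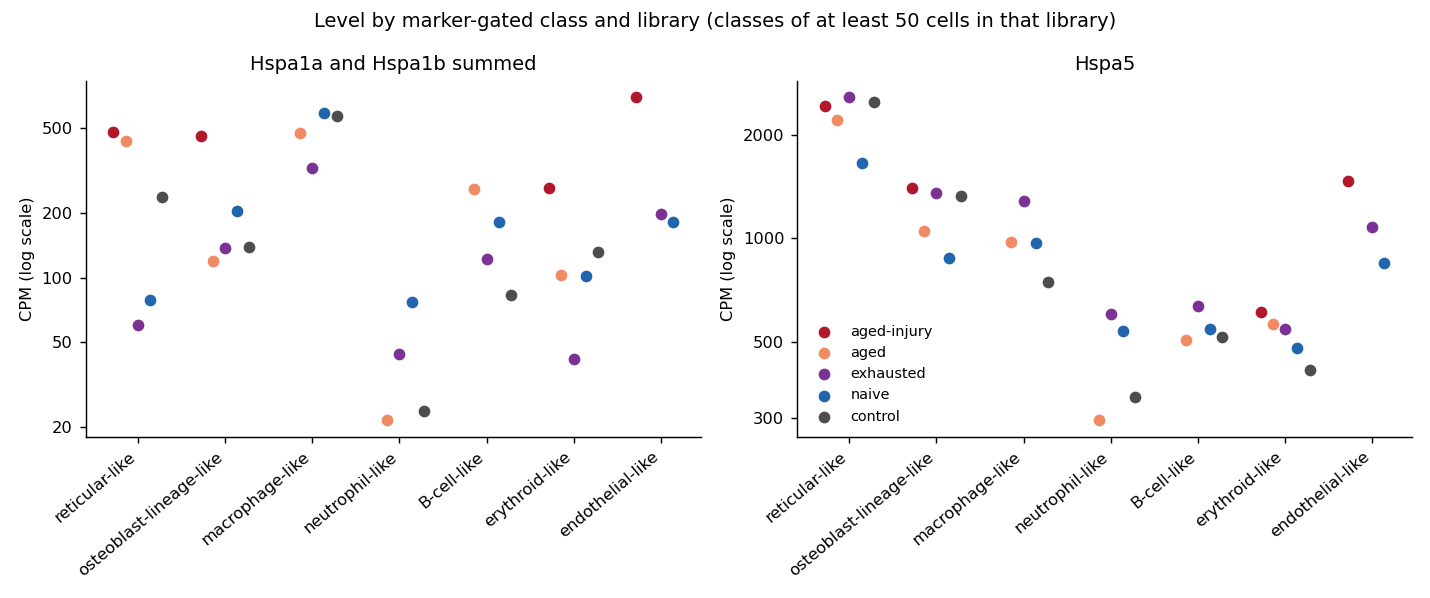
Level in CPM on log axes of Hspa1a and Hspa1b summed (left) and of Hspa5 (right) in 7 marker-gated classes, 1 point per library with at least 50 cells of the class. Hspa5 is highest in reticular-like cells in each library, while the summed CPM of the HSP70 pair has naive below control in reticular-like cells and above it in neutrophil-like and B-cell-like cells, where few cells carry it.

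Likeness between genes was described over the 35 sums of a library and a class, for 7264 genes, by Pearson's r of log2(CPM + 1); sums from 1 library share its depth and handling. Hsp90b1 was most like Pdia4 (r = 0.96), Erp44 and Tob2; Pdia4 was most like Pdia6 (r = 0.97), Hsp90b1 and Arl1; and Hspa5 was most like Fosb (r = 0.93), Dnajc3 and Gaa. Hspa1a and Hspa1b were each most like the other, at 0.90, and next like Tmem109 and Nr1d1 for Hspa1a and Snx1 and Clcc1 for Hspa1b. Hsp90aa1 was most like Pole3, Get4 and Hsph1, the last at 0.80. Hspa8 was most like Sumo3, Emc7 and Ctdnep1, Dnajb1 like Kng2, Fgfrl1 and Oat, and Xbp1 like Vim, Tm2d2 and Txndc12. Ddit3 had no close match, with Senp7, Lnpk and Ogt at 0.66 to 0.67.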

How the data were processed

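Per the labels' protocols, femurs were cut open and digested, tdTomato-positive cells were sorted, and about 30000 cells per group were loaded on a BD Rhapsody HT Xpress instrument. The authors deposited matrices of raw UMI counts, whole numbers per gene and cell; Seurat 5.1 and the build GRCm39 are named in the submitters' processing notes, and no source used here gives the aligner, the counter or the cell calling. The libraries held 224155538, 62179497, 68170277, 58895655 and 95397522 UMIs in aged-injury, aged, exhausted, naive and control, and shared 0 to 5 cell indexes per pair of libraries.

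From these counts, cells with at least 500 genes, 1000 UMIs and a mitochondrial share under 25% were kept. A class needed 4 to 6 of its markers (6 of 12 for reticular-like) at 2 or more UMIs, a rule set after the files had been seen. Cells past stromal gates alone went to the gate with the larger share of its markers. All other cells past more than 1 gate, ties between stromal gates among them, were left out, which was the treatment of doublets. They were 127 to 409 per library. UMIs were summed per library and class and scaled to CPM. CPM intervals are exact Poisson, ratio intervals exact conditional binomial and shares Clopper-Pearson, all at 95%. The ratio intervals alone were tried on simulated data, Poisson counts for naive over control. Such counts lack the spread between cells of the real data, so the trial does not cover that spread. With 1 library per group nothing was tested. Up to 4 genes per list and comparison were named if past 2-fold in reticular-like cells, and 3 like genes per member. The members and lists were chosen with earlier results of these data known. Tools were Python 3.11.15, numpy 2.4.6, scipy 1.17.1, pandas 2.3.3, Biopython 1.88 and, for scaling factors alone, edgeR 4.0.16 and DESeq2 1.42.0 in R 4.3.3. Sequences are from GRCm38, and no coordinates of the count files were used.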

Additional observations from a re-analysis of the deposited data

Results flagged for a closer look

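Of the 10 genes 6 had ratios on opposite sides of 1, with both counting intervals clear of 1, in the 2 single-ablation comparisons of reticular-like cells, aged-injury over aged and naive over control. By the same criterion 18.2% of the 6534 genes measured in both comparisons did so. By the sign alone it was 7 of the 10, Xbp1 (0.992 and 1.05) being the further one, and 33.1% of all; intervals are narrower for genes with more UMIs. The difference of the log2 ratios, the old pair minus the young pair, was 1.87 for Hspa1a, with ratios of 1.20 and 0.329, and 1.64 for Hspa1b, with 1.03 and 0.329. It was 0.70 for Hspa8 (1.15 and 0.707), 0.73 for Hspa5 (1.10 and 0.664) and 0.53 for Dnajb1 (1.23 and 0.855). For Ddit3 it was -0.49, with ratios of 0.940 and 1.32. The 2 comparisons no longer went opposite ways for Hspa1b under median-of-ratios scaling, with a log2 ratio of -0.01 for aged-injury over aged, or for Ddit3 with a mitochondrial share under 10% or cells of 5000 to 15000 UMIs alone, with 0.01 and 0.02. Split by depth or mitochondrial share, Hspa1b in aged-injury over aged was above 1 in 3 of 6 strata and below 1 in 3. The members were chosen with earlier results of these data known, and Hspa1a and Hspa1b are near copies. Their share beside that of all genes is thus a description and no test. The differences of log2 ratios were not tested, each side being 1 library against 1. The comparisons differ in age, 18 months and 15 weeks, and in time since surgery, 1 and 2 weeks, which cannot be told apart.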

How the results depend on the processing

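The 10 alternatives were TMM and median-of-ratios scaling, leaving mitochondrial UMIs out of the total, the mean of per-cell CPM, a mitochondrial share under 10%, a stricter and a looser gate, no minimum level, the HSP70 pair summed as 1 gene, and, chosen after seeing the data, cells of 5000 to 15000 UMIs alone. Of 455 member ratios under an alternative, 445 kept their direction and 10 turned, each with a reported log2 ratio of at most 0.14 in size: Xbp1 in naive over control under 3 alternatives, Dnajb1 and Hspa5 in exhausted over control as a mean of per-cell CPM, and Hspa1b, Hsp90aa1, Xbp1 and Ddit3 in aged-injury over aged. All 38 values of ratios past 2-fold kept theirs. The alternative with no minimum level could turn no member, as each had over 20 CPM in reticular-like cells of every library. Its values in both counts were thus kept by construction. TMM moved the median of all genes for naive over control to -0.02 from 0.13, and under it and median-of-ratios scaling Hsp90aa1 joined the pair past 2-fold lower, making 3. No paired analysis was possible because each group has 1 library. With cells thinned to 4000 UMIs or left unthinned every share of cells with a UMI was higher than at 2000, which follows from the greater depth. The share of reticular-like cells with Hspa1a was 2.76% in exhausted and 3.02% in naive at 2000 UMIs. It was 5.37% and 4.99% at 4000, and 8.73% and 7.64% unthinned, so the order changed. The intervals of exhausted and naive overlapped each time. Depth limits Hspa1a, Hspa1b and Ddit3 to shares of cells and sums, not levels in single cells.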

Other observations

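In all, 10 plasma-cell-like cells were found in all libraries together, under the minimum of 50 cells, and were looked at after their values were seen. Plasma cells are professional antibody secretors that depend on XBP1. They had 2137 CPM of Xbp1 (1944 to 2344), 5676 CPM of Hsp90b1 and 493 CPM of Pdia4, against 159 to 209, 1525 to 2170 and 163 to 220.3 CPM in reticular-like cells, while Hspa5, at 2075 CPM (1885 to 2279), was within the range of reticular-like cells. Cells that passed no gate had medians of 1467 to 2965 UMIs. Ddit3 in them was 76.2 CPM in aged-injury, 147 in aged, 53.8 in exhausted, 65.2 in naive and 78.0 in control, so aged stood above the others. Hspa1b made up 84% of the pair's UMIs in naive neutrophil-like cells and 57.5% to 72.9% in the other 3 libraries with that class.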
